A study of Homo sapiens with 6 samples.

Results

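The nuclear genes for subunits of mitochondrial respiratory complexes I to V, and for the 2 HIG1-domain assembly factors HIGD1A and HIGD2A, were compared between SND1 knockdown and vector cells. Members were array rows with exactly 1 platform symbol starting with a subunit prefix (NDUFA, NDUFB, NDUFC, NDUFS, NDUFV, UQCR, COX4I, COX5, COX6, COX7, COX8 or ATP5), or equal to SDHA, SDHB, SDHC, SDHD, CYC1, HIGD1A or HIGD2A. Pseudogenes were left out, and the row with the highest mean signal stood for a gene. This gave 88 of 22465 named genes: 74 subunits of complexes I to V, 8 complex I assembly factors (NDUFAF genes), 2 HIG1 genes, 2 relatives of complex V and 2 antisense RNAs that carry a subunit's name. A further 9 rows carried a member's name beside another symbol and were not members. SDHB and UQCRFS1 were not analysed here, nor were subunits encoded by mitochondrial DNA.

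The cells were stable lines labelled HepG2, a line derived from a human hepatoblastoma, that carried either pLKO-shSND1-#1, a short hairpin RNA against SND1 (3 arrays), or the empty pLKO vector (3 arrays). Both groups were grown in DMEM with fetal bovine serum and received fluorouracil at 6 µg/mL for 48 h, so neither an untreated state nor the drug's own effect was measured. Only 1 hairpin was used and the control carried none, so loss of SND1 and other effects of this hairpin cannot be told apart. The labels do not say whether the lines were clones or pools, nor whether replicates came from separate cultures.

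SND1, an RNA-binding nuclease and transcriptional coactivator, was lower in the knockdown cells, with a log2 signal of 5.80 ± 0.10 in shSND1 cells and 7.28 ± 0.14 in vector cells (SD, n = 3 each, on a row shared with SND1-IT1). The liver markers ALB (8.12th percentile of named genes) and AFP (3.74th percentile) had low signals on these arrays, and the 10 measured hepatocyte markers had a median percentile of 13.6. Of these 10, 7 lay below the median of named genes: ALB, AFP, FGA (9.46th percentile), FGB (6.25), FGG (2.14), APOB (17.7) and TTR (25.9). APOA2 lay at the 95.9th percentile, SERPINA1 at 65.3 and APOA1 at 57.5. Whether the cells are HepG2, as labelled, was not tested. Epithelial keratins KRT8 and KRT18 both lay at the 99.9th percentile. The leukocyte marker PTPRC lay at the 4.19th percentile, while CD68 had a mean log2 signal of 8.17 and a change of -0.55 that did not pass. A principal component analysis put 55.4% of the variance on its first axis. The shSND1 arrays scored between 3.76 and 10.3 there, and the vector arrays at -14.1, -6.62 and 1.20 (replicates 1 to 3). The vector arrays were thus spread more widely than the shSND1 arrays along this axis. Over named genes, the difference between vector replicate 3 and shSND1 replicate 1 had an SD of 0.140. That was less than between vector replicate 3 and vector replicates 1 (0.193) and 2 (0.149), so the arrays did not part cleanly by group.

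Complex I takes electrons from NADH and complex II from succinate. Both pass them through ubiquinone to complex III, then through cytochrome c to complex IV, which reduces oxygen. Complexes I, III and IV pump protons, and complex V uses the gradient to make ATP. Most subunits are encoded in the nucleus. HIGD1A and HIGD2A are related to yeast Rcf1, a protein of the inner mitochondrial membrane, and act in the assembly of complex IV and of respiratory supercomplexes.

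HIGD2A fell in the knockdown cells, and it was the 1 member of 88 that passed the test. Its log2 signals were 7.98, 8.03 and 7.98 on the shSND1 arrays, against 8.47, 8.54 and 8.46 on the vector arrays. The groups lay well apart. The group means were 7.99 ± 0.03 in shSND1 cells and 8.49 ± 0.04 in vector cells (SD, n = 3 each). The change was -0.50 (SE 0.05, limma adjusted p = 0.034, 95% confidence interval -0.62 to -0.38). The knockdown signal was thus 1.41-fold lower, or 70.7% of that in vector cells. By limma's p, HIGD2A ranked 10 among the 22465 named genes, and by size 20 among the 31 genes that fell. Over all named genes, 0.138% fell and 0.0312% rose at an adjusted p under 0.05. An exact permutation test (two-sided) gave 0.1, which 3 arrays against 3 cannot go below. Over 14 other settings the change lay between -0.56 and -0.47. Settings that alter only the spread or the genes tested, such as leaving out the dimmest 40%, could not move it. The limma adjusted p passed in 7 of the 14 settings and ranged from 0.00176 to 0.234. Its lowest value came with array weights, a fit that stopped before convergence and called 3212 of all named genes. Leaving out vector replicate 1 gave -0.51 (limma adjusted p = 0.136). The call also ended without vector replicate 2 (0.225), shSND1 replicate 1 (0.164), shSND1 replicate 2 (0.155) or shSND1 replicate 3 (0.149), and held without vector replicate 3 (0.0496).

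HIGD1A, a hypoxia-induced member of the family, did not pass. Its log2 signals were 8.39, 8.66 and 8.43 in shSND1 cells and 8.45, 8.40 and 8.29 in vector cells. The groups overlapped, and shSND1 replicate 2 was the highest array. The change was 0.11 (SE 0.08, limma adjusted p = 0.633, 95% confidence interval -0.08 to 0.30). Within each array, the difference between HIGD2A and HIGD1A was -0.50 ± 0.11 in shSND1 cells and 0.11 ± 0.08 in vector cells (SD, n = 3 each, log2). The shift of -0.61 in that difference had an exact two-sided permutation p of 0.1, the smallest possible. Since HIGD2A was singled out for passing the threshold, this separation largely repeats its own and is no further test. Each gene was read by its own transcript cluster, so the 2 signals do not rank the transcripts by abundance. In bulk RNA, less RNA per cell and fewer cells that hold it cannot be told apart.

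HIGD2A starts head to head with NOP16, a gene for a nucleolar protein of ribosome biogenesis, on chromosome 5. The start sites in the RefSeq annotation lie 152 bases apart, and the same stretch of DNA precedes both genes. It is shown because the genes that share it gave different values here. The span is chr5:176388599-176388750 (GRCh38.p14, plus strand, 5′ to 3′ towards HIGD2A, RefSeq):
HIGD2A: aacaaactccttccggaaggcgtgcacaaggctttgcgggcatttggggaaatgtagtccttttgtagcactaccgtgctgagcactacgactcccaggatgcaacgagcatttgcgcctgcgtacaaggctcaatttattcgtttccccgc
No letter is in capitals because none of the motifs searched in the promoter windows, given further on, matched within it.

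NOP16 was chosen for this comparison after its value was seen. Its log2 signals were 5.91, 5.96 and 5.99 in shSND1 cells and 6.02, 5.96 and 5.91 in vector cells, so the groups overlapped. The change was -0.01 (SE 0.06, limma adjusted p = 0.952, 95% confidence interval -0.14 to 0.12). Within arrays, HIGD2A minus NOP16 was 2.04 ± 0.04 in shSND1 cells and 2.53 ± 0.07 in vector cells (SD, n = 3 each, log2). That shift of -0.49 had no overlap and an exact two-sided permutation p of 0.1, the smallest possible. HIGD2A was singled out for passing the threshold and NOP16 with its value known. The separation of their difference thus repeats that of HIGD2A and is no further test. Of the next protein-coding genes with a row, KIAA1191 gave -0.23 (SE 0.07, limma adjusted p = 0.215), with CLTB, a clathrin light chain gene, -0.09 (SE 0.05) and FAF2, an adaptor gene of endoplasmic reticulum protein degradation, -0.02 (SE 0.06).

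**Figure D1:**
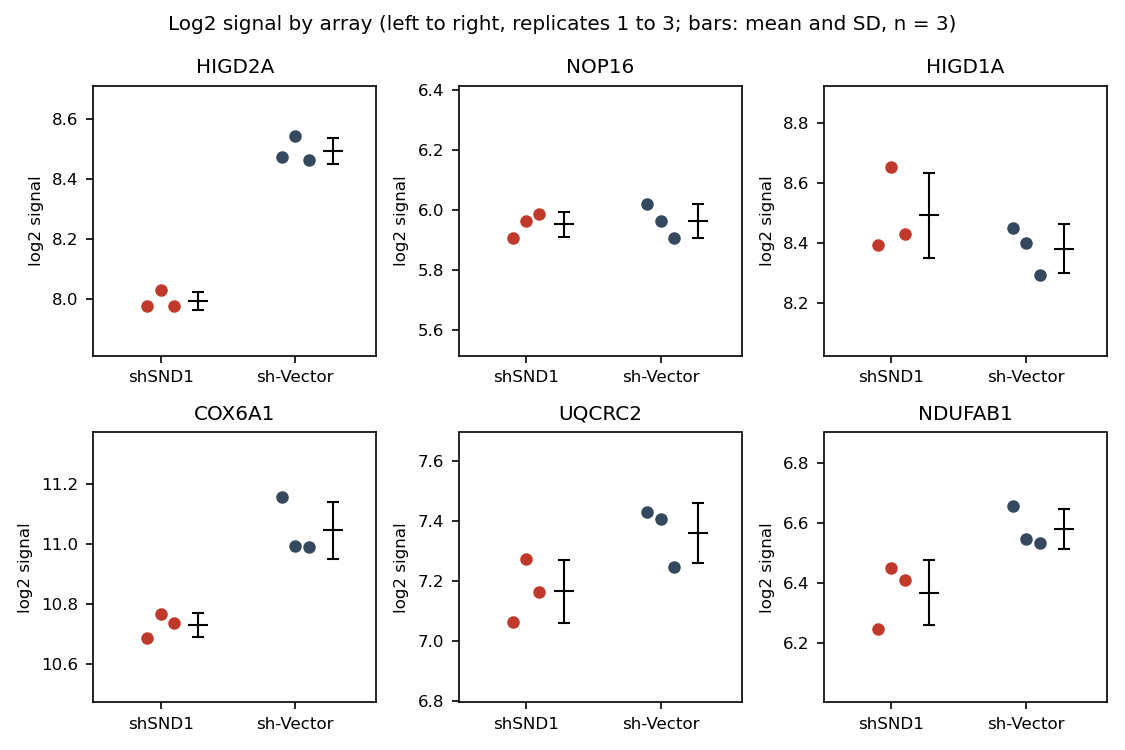
Log2 signal (vertical axis, 0.9 units high in each panel) of 6 genes on the 3 shSND1 arrays (left, red) and the 3 vector arrays (right, dark), with the group mean and SD beside the points. HIGD2A, COX6A1 and NDUFAB1 had all shSND1 arrays below all vector arrays, while NOP16, HIGD1A and UQCRC2 overlapped.

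None of the 74 subunits of complexes I to V passed limma's adjusted threshold, and before adjustment 3 were lower and 0 higher at a limma p under 0.05. The background at that level was 7.34% lower and 4.85% higher over all named genes, and 10.4% lower and 4.86% higher without the dimmest 40%. The median change of the 74 subunits was -0.02, against 0.01 over all named genes and -0.0090 over the genes without the dimmest 40%, a set closer to the members, of which 78 of 88 lay at or above the median signal. Of the subunits, 29 had a positive and 45 a negative change, and 58 changed by less than 0.1 in size. Changes of over 1.5-fold in either direction lay outside the 95% confidence interval of each of the 74 subunits, and for 66 of them the interval lay within -0.3 and 0.3. The intervals are those of limma for single genes, without adjustment.

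**Figure D2:**
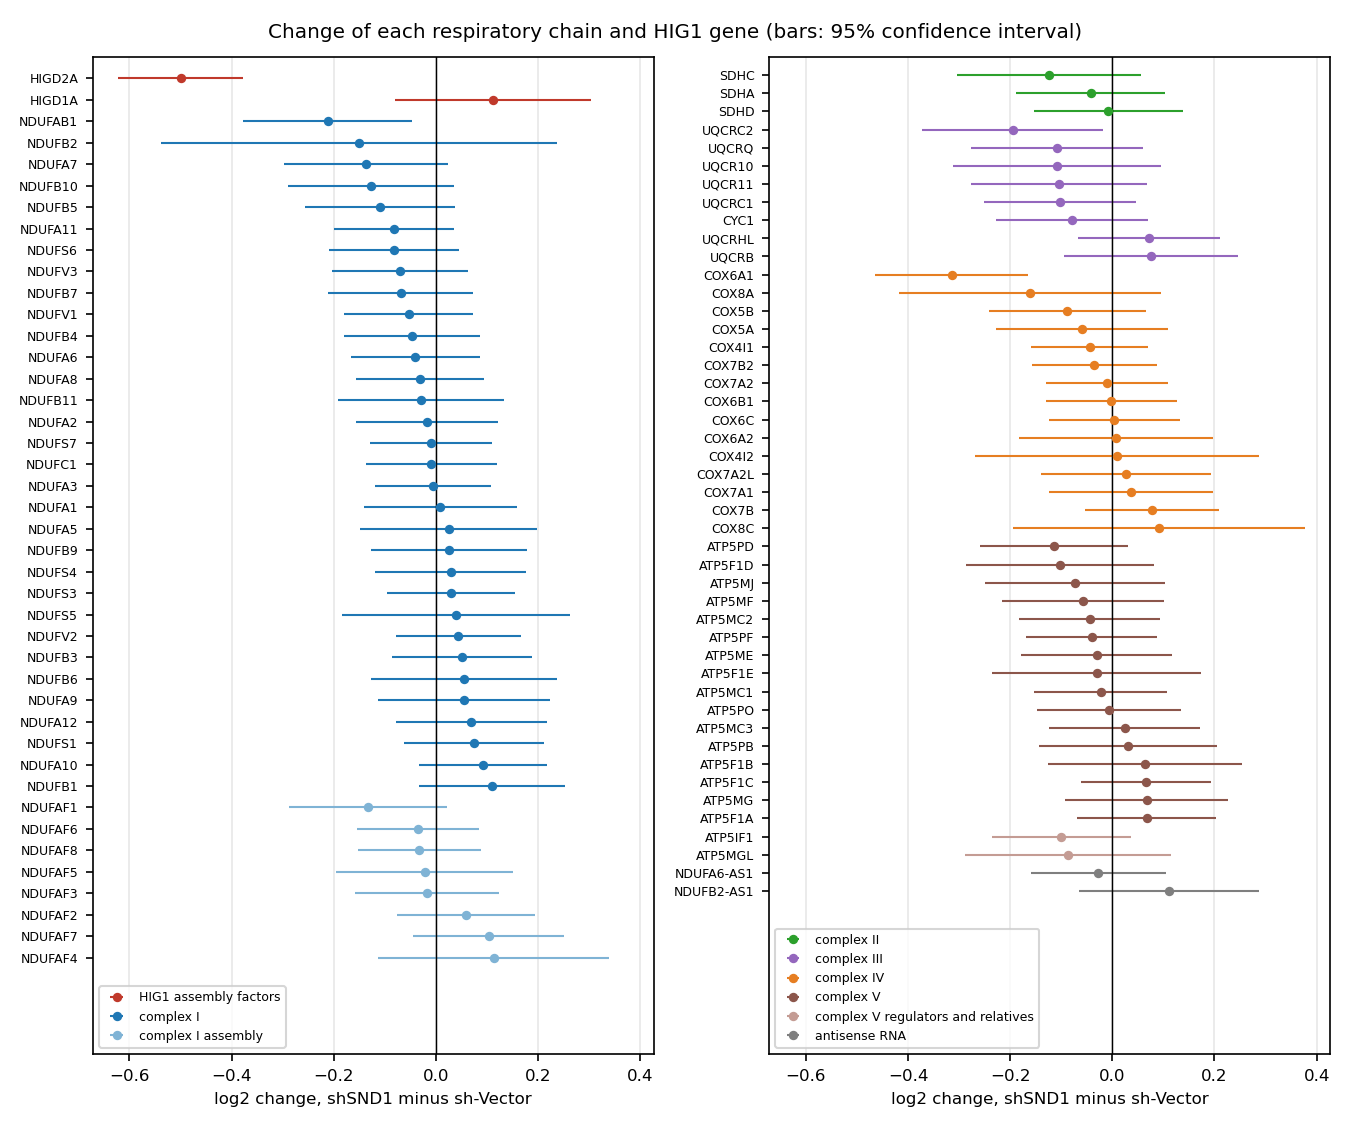
Log2 change (horizontal axis, shSND1 minus vector, 3 arrays each) of each of the 88 members, grouped by complex and ordered by change, with limma's 95% confidence interval. HIGD2A stands alone at -0.50, COX6A1 follows at -0.31, and most other intervals cross 0.

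Members whose shSND1 arrays did not overlap the vector arrays were few. Among all 88 members, 8 had every shSND1 array below every vector array (9.09%) and 2 had every one above (2.27%). The background over named genes was 11.6% for lower and 6.33% for higher, and without the dimmest 40% it was 16.5% and 6.19%. The 8 lower genes were HIGD2A, COX6A1, COX4I1, NDUFAB1, NDUFA7, NDUFB5, NDUFS6 and NDUFA11, and the 2 higher ones were NDUFB1 and NDUFA10. Apart from HIGD2A, COX6A1 and NDUFAB1, these 10 genes had changes no larger than 0.14 in size.

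Complex I was represented by 32 subunits with a median change of -0.0090, 14 of them positive and 18 negative. The 8 subunits of the N module, which oxidises NADH, had a median change of 0.0052 and a range from -0.08 to 0.07. They included NDUFV1, which carries the flavin, with a change of -0.05 (SE 0.05), and NDUFS1, an iron-sulfur subunit, with 0.07 (SE 0.06). The 6 measured subunits of the Q module, which passes electrons to ubiquinone, had a median of 0.0079. Medians were -0.0057 for the 7 subunits of the proximal membrane arm and -0.05 for the 11 of the distal membrane arm.

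NDUFAB1, the mitochondrial acyl carrier protein, counted here with the distal arm only, had the smallest limma p of complex I. Its log2 signals were 6.25, 6.45 and 6.41 in shSND1 cells, against 6.66, 6.55 and 6.54 in vector cells. The groups did not overlap, but the change of -0.21 (SE 0.07) did not pass (limma adjusted p = 0.294), and was -0.17 without vector replicate 1. NDUFA7, a supernumerary subunit of the Q module, had 7.92, 7.90 and 7.98 in shSND1 cells and 8.20, 8.02 and 7.99 in vector cells, a change of -0.14 (SE 0.07, limma adjusted p = 0.491). In NDUFA7 the groups were parted by less than 0.01, and without vector replicate 1 the change was -0.07.

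NDUFB10, a distal arm subunit, had 6.43, 6.55 and 6.57 in shSND1 cells and 6.74, 6.64 and 6.55 in vector cells. These groups overlapped, with a change of -0.13 (SE 0.07) that was -0.08 without vector replicate 1. NDUFS5, the complex I subunit with the highest signal, had 8.47, 8.68 and 8.34 in shSND1 cells and 8.57, 8.35 and 8.44 in vector cells, a change of 0.04 (SE 0.10) that was 0.10 without vector replicate 1. NDUFB2 had the widest interval of the members. Its brighter row gave 4.54 on shSND1 replicate 1, against 5.09 and 5.28 on the other shSND1 arrays and 5.09 to 5.16 on the vector arrays, with a change of -0.15 (SE 0.17). Its second row had a change of -0.04 (SE 0.06), so the low value of shSND1 replicate 1 appeared on 1 of its 2 rows.

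The 8 NDUFAF assembly factors of complex I had a median change of -0.02 and a range from -0.13 (NDUFAF1, SE 0.07) to 0.11 (NDUFAF4, SE 0.10). None passed limma's adjusted threshold, and 0 had an unadjusted limma p under 0.05. Of 11 other complex I assembly factors, such as ACAD9, ECSIT and TIMMDC1, likewise 0 passed and 0 had an unadjusted limma p under 0.05. Their smallest p was that of COA1, with a change of -0.12 (SE 0.07, limma adjusted p = 0.527).

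Complex II, the succinate dehydrogenase that also serves the citric acid cycle, was represented by 3 of its 4 genes. SDHA, the flavoprotein, had log2 signals of 6.79, 6.77 and 6.83 in shSND1 cells and 6.94, 6.83 and 6.75 in vector cells. SDHC, a membrane anchor, had 7.41, 7.44 and 7.48 in shSND1 cells and 7.72, 7.55 and 7.44 in vector cells. SDHD, the other anchor, had 6.52, 6.67 and 6.59 in shSND1 cells and 6.58, 6.67 and 6.55 in vector cells. All 3 overlapped, with changes of -0.04 (SE 0.06), -0.12 (SE 0.08) and -0.0078 (SE 0.06). Leaving out single arrays moved SDHC between -0.19 (without vector replicate 3) and -0.05 (without vector replicate 1). None passed, at limma adjusted p-values from 0.576 to 0.971, and 0 had an unadjusted limma p under 0.05. Its 4 assembly factors (SDHAF genes) had changes between 0.0012 and 0.08, and 0 passed either threshold of limma.

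Complex III, the cytochrome bc1 complex, had the lowest median change of the 5 complexes, at -0.10 over 8 genes, of which 6 were negative. That median was -0.03 without vector replicate 1, which had the highest mean signal of complex III (6.80, against 6.62 to 6.68 on the other 5 arrays). UQCRC2, a core subunit of the matrix side, had 7.06, 7.27 and 7.16 in shSND1 cells and 7.43, 7.41 and 7.25 in vector cells. The groups overlapped at shSND1 replicate 2 and vector replicate 3, and the change of -0.20 (SE 0.08) did not pass (limma adjusted p = 0.366), and was -0.16 without vector replicate 1. UQCRC1, the other core subunit and the complex III gene with the highest signal, had 8.12, 8.11 and 8.06 in shSND1 cells and 8.31, 8.17 and 8.12 in vector cells, a change of -0.10 (SE 0.06).

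UQCRQ, a small subunit beside cytochrome b, had 6.15, 6.03 and 6.02 in shSND1 cells and 6.16, 6.07 and 6.29 in vector cells, with a change of -0.11 (SE 0.07). CYC1, the cytochrome c1 gene, had 7.87, 7.95 and 7.85 in shSND1 cells and 8.07, 7.93 and 7.91 in vector cells, with a change of -0.08 (SE 0.06). Both genes overlapped between the groups. Without vector replicate 1 the change was -0.05 for UQCRC1 and -0.03 for CYC1. The 2 positive changes were those of UQCRB (0.08, SE 0.07) and of UQCRHL (0.07, SE 0.06), an intronless relative of UQCRH whose probes may also read UQCRH. Of 6 complex III assembly factors, 0 passed and 0 had an unadjusted limma p under 0.05. For BCS1L, the translocase that inserts the Rieske protein, the change was -0.11 (SE 0.05, limma adjusted p = 0.425).

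Complex IV, cytochrome c oxidase, had a median change of -0.0021 over 15 genes. Over its 9 ubiquitous subunits the median was -0.04, with 7 of the 9 negative. It held COX6A1, the subunit VIa isoform of most tissues outside heart and skeletal muscle, which had the largest change of the 74 subunits. Its log2 signals were 10.69, 10.77 and 10.74 in shSND1 cells, against 11.16, 10.99 and 10.99 in vector cells, with no overlap. The change of -0.31 (SE 0.06, 95% confidence interval -0.46 to -0.17) did not pass over all named genes (limma adjusted p = 0.126). It passed in 2 of 14 other settings, those without the dimmest 40% (0.0445) and with array weights (0.0146). The fit with array weights stopped before convergence. Without vector replicate 1 the change was -0.26 (limma adjusted p = 0.287).

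COX6A1P2, a pseudogene copy left out of the members, had 9.80, 9.84 and 9.81 in shSND1 cells and 10.11, 10.03 and 10.04 in vector cells. Its change was -0.24 (SE 0.05, limma adjusted p = 0.134). A processed copy can share probe sequence with its parent gene, so COX6A1 and COX6A1P2 cannot be counted as separate measurements.

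The other 8 ubiquitous complex IV subunits had changes between -0.16 and 0.08. COX8A, a small membrane subunit, had 10.46, 10.75 and 10.49 in shSND1 cells and 10.93, 10.69 and 10.57 in vector cells, with a change of -0.16 (SE 0.11) that was -0.06 without vector replicate 1. COX7B had 6.69, 6.74 and 6.78 in shSND1 cells and 6.72, 6.61 and 6.65 in vector cells, with a change of 0.08 (SE 0.06). In both genes the groups overlapped. COX4I1, the regulatory subunit IV, had a change of -0.04 (SE 0.05) although its groups did not overlap. The 6 tissue isoforms and relatives, among them the muscle isoforms COX6A2 and COX7A1 and the supercomplex factor COX7A2L, had a median of 0.02 and changes between -0.03 and 0.09. Of these, the testis isoforms COX8C and COX7B2 had mean log2 signals of 1.89 and 2.08.

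Of 22 measured assembly factors of complex IV, 0 passed, 1 was higher and 0 lower before adjustment (limma p under 0.05), and the median change was -0.0086. The share higher was 4.55%, against 4.85% over all named genes, of which 7.34% were lower. The higher one was COX20, a chaperone of the subunit COX2, with 7.19, 7.42 and 7.26 in shSND1 cells and 7.09, 7.12 and 7.09 in vector cells (change 0.19, SE 0.07, limma adjusted p = 0.325). HIGD2A fell while 0 of the 22 other complex IV assembly genes and 0 of 15 complex IV subunits passed limma's adjusted threshold. Whether HIGD2A differed from them was not tested. At that threshold 0.138% of all named genes fell and 0.0312% rose.

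Complex V, the ATP synthase, had the narrowest range of the larger complexes, from -0.11 to 0.07 over 16 genes, with a median of -0.03. None passed limma's adjusted threshold and 0 had an unadjusted limma p under 0.05. ATP5F1B, the catalytic beta subunit and the complex V gene with the highest signal, had 10.34, 10.58 and 10.40 in shSND1 cells and 10.48, 10.37 and 10.28 in vector cells, with a change of 0.06 (SE 0.08). ATP5PD, subunit d of the peripheral stalk, had 9.21, 9.33 and 9.23 in shSND1 cells and 9.45, 9.33 and 9.33 in vector cells, a change of -0.11 (SE 0.06). ATP5F1D, the delta subunit of the central stalk, had 7.95, 7.90 and 7.83 in shSND1 cells and 8.15, 7.95 and 7.88 in vector cells (change -0.10, SE 0.08). ATP5F1C, the gamma subunit, had 8.60, 8.67 and 8.70 in shSND1 cells and 8.59, 8.63 and 8.56 in vector cells (change 0.07, SE 0.06).

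The groups overlapped in all 4 of these genes. Without vector replicate 1 the change was -0.02 for ATP5F1D, -0.07 for ATP5PD and 0.12 for ATP5F1B. ATP5IF1, the inhibitor that blocks ATP hydrolysis by complex V, had a change of -0.10 (SE 0.06). ATP5MGL, counted above with the relatives of complex V, had -0.09. Changes of 4 assembly factors of complex V lay between -0.03 and 0.03. The antisense RNAs NDUFB2-AS1 and NDUFA6-AS1 had changes of 0.11 (SE 0.08) and -0.03 (SE 0.06).

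**Figure D3:**
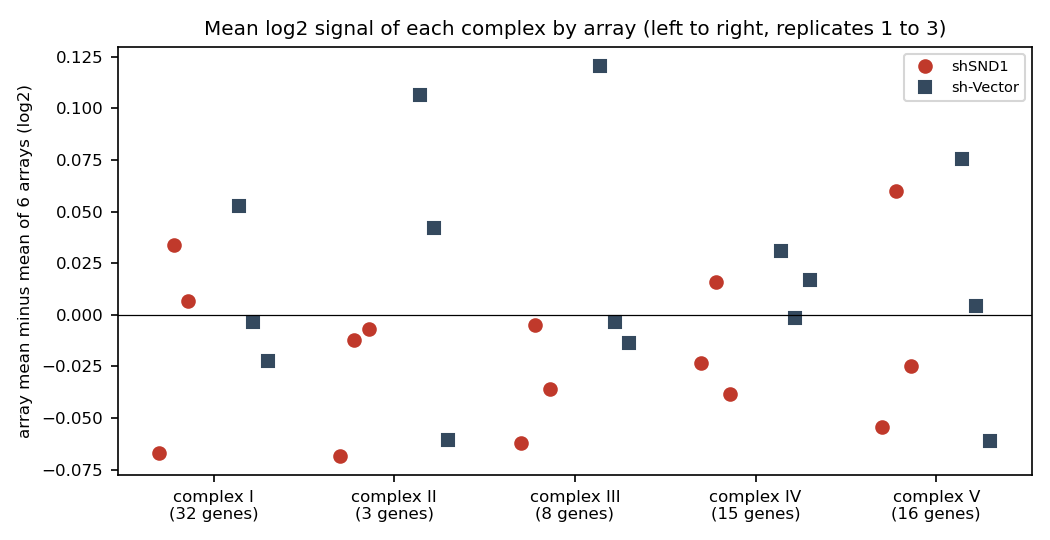
Mean log2 signal of the genes of each complex on each array, minus the mean of the 6 arrays (vertical axis), with shSND1 arrays as red circles to the left and vector arrays as dark squares to the right. The groups overlapped in all 5 complexes, and vector replicate 1 was the highest array in each.

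Set over whole complexes, the array means overlapped between the groups in each of complexes I to V. For the 74 subunits together the array mean was 6.61 ± 0.04 in shSND1 cells and 6.63 ± 0.04 in vector cells (SD, n = 3 each). Vector replicate 1 had the highest mean in each of the 5 complexes. The lowest was shSND1 replicate 1 in complexes I, II and III, shSND1 replicate 3 in complex IV and vector replicate 3 in complex V. Vector replicate 1 also had the highest mean over named genes without the dimmest 40% (5.99, against 5.96 to 5.98 on the other arrays). Its median over all named genes was the lowest of the 6 arrays (4.78, against 4.81 to 4.89). Without vector replicate 1 the medians of complexes I and V were positive (0.01 each) and that of complex IV was -0.03. With array medians centred, which moved the median of all named genes to -0.05, the median of all 88 members was -0.08.

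Beyond the chain itself, the citric acid cycle and pyruvate dehydrogenase list had 14 of 16 measured genes with a negative change and a median of -0.06. None of the 16 passed, and 5 were lower and 0 higher before adjustment (limma p under 0.05; 31.2%, against 7.34% lower over all named genes and 10.4% without the dimmest 40%). They were IDH3A (-0.35, SE 0.06, limma adjusted p = 0.0879), CS (-0.33, SE 0.08), OGDH (-0.19, SE 0.07), IDH3G (-0.19, SE 0.07) and PDHX (-0.14, SE 0.06). IDH3A, the catalytic subunit of NAD-dependent isocitrate dehydrogenase, had 6.89, 7.05 and 6.95 in shSND1 cells and 7.35, 7.30 and 7.27 in vector cells. The 4 genes after IDH3A were named after their values were seen. The array mean of the list was 7.01 ± 0.05 in shSND1 cells and 7.11 ± 0.09 in vector cells (SD, n = 3 each), and the groups overlapped. Vector replicate 1 had the highest mean (7.19), as it did over named genes without the dimmest 40%. Vector replicate 3 (7.02) lay within the shSND1 range of 6.96 to 7.06. IDH3A, CS, OGDH and IDH3G also had their highest signal on vector replicate 1, and PDHX on vector replicate 2.

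Regulators of mitochondrial biogenesis had a median change of 0.02 over 14 measured genes, with 0 past limma's adjusted threshold, and before adjustment 2 lower (ESRRA and POLG) and 0 higher at a limma p under 0.05 (14.3% lower, against 7.34% over all named genes and 10.4% without the dimmest 40%). ESRRA, an orphan nuclear receptor that drives oxidative genes, had 6.38, 6.31 and 6.23 in shSND1 cells and 6.47, 6.48 and 6.51 in vector cells (change -0.18, SE 0.06, limma adjusted p = 0.26). TFAM, the packaging factor of mitochondrial DNA, had a change of 0.12 (SE 0.08). Among 16 other electron carriers and HIG1 relatives, 0 passed, and ETFA, a subunit of the electron transfer flavoprotein, was the 1 gene with an unadjusted limma p under 0.05 (change 0.16, SE 0.06, limma adjusted p = 0.32). The share higher was thus 6.25%, against 4.85% over all named genes.

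Of the 9 rows that carried a member's name beside another symbol, 2 had an unadjusted limma p under 0.05 and were named after their values were seen. At that level 7.34% of all named genes were lower and 4.85% higher. The share over all transcript clusters is not given here. The row of COX7C, a complex IV subunit, and MIR3607, a small RNA gene, had a change of 0.44 (SE 0.10). The row of NDUFS8, an iron-sulfur subunit of complex I, and MIR4691 had -0.30 (SE 0.09). Neither passed over all transcript clusters (limma adjusted p = 0.324 and 0.424), and which of the symbols these signals came from was not tested.

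Cell type markers moved in part with the groups. All 5 epithelial markers had a negative change, though that of EPCAM was only -0.0033 (SE 0.06). CDH1 fell (-0.95, SE 0.07, limma adjusted p = 0.00954). The 5 epithelial markers had array means of 9.60 to 9.67 in shSND1 cells and 9.93 to 10.03 in vector cells. The 10 hepatocyte markers had array means of 3.19 to 3.29 in shSND1 cells and 3.26 to 3.32 in vector cells. Among them SERPINA1 had a change of -0.43 (SE 0.07) with no overlap that did not pass (limma adjusted p = 0.083). The 5 leukocyte markers had array means of 3.66 to 3.82 in shSND1 cells and 3.81 to 3.93 in vector cells. Of these, CD68 had a change of -0.55, while PTPRC, CD14, CD3E and LYZ lay between -0.05 and 0.09. The 5 endothelial and fibroblast markers had 4.07 to 4.19 in shSND1 cells and 3.95 to 4.16 in vector cells. The part of cell state or cell mixture in the change of HIGD2A was not tested.

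Promoter windows of RefSeq (GRCh38.p14, 250 bases before to 50 after each start) were available for 71 of the 88 members and were searched on both strands for 3 sets of letters. Those were GCGCA, any base and GCGC in a row for NRF1 and CCGGAAGT for the ETS factor GABP, both known activators of nuclear respiratory genes, and AAGATGGCG for YY1. The NRF1 letters occurred in 17 of the 71 windows (23.9%), against 8.79% of 13886 windows of protein-coding named genes and 6.28% of all 27305 windows. GABP letters occurred in 7 windows (9.86%, against 6.29% and 4.44%) and YY1 letters in 7 (9.86%, against 2.90% and 1.85%). Some windows held more than 1 of the 3, and 27 held any. A match describes the letters and is not evidence of binding.

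The stretches with NRF1 letters are shown for 1 gene each of complexes I, II, III and V, the gene with the smallest limma p among those with the letters before the start. Capitals mark the letters of the motif, or those of its reverse complement in NDUFA11 and UQCRC1. The stretches run 5′ to 3′ in the direction of the gene, at chr19:5903869-5903898 (minus strand), chr5:218144-218173 (plus), chr3:48609674-48609703 (minus) and chr10:7788145-7788174 (plus) of GRCh38.p14:
NDUFA11: ccggtccccgGCGCGTGCGCgcgatccatg
SDHA: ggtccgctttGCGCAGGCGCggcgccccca
UQCRC1: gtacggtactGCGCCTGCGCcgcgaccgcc
ATP5F1C: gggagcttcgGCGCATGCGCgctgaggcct
These 4 genes had changes of -0.08, -0.04, -0.10 and 0.07, and none passed. The median change was -0.03 over the 17 members with NRF1 letters and -0.02 over the 54 without. It was -0.11 over the 7 members with GABP letters and -0.02 over the 64 without, and -0.04 over the 7 with YY1 letters and -0.02 over the 64 without. These medians are descriptions with no test. The windows of HIGD2A and HIGD1A held none of the 3 motifs, which says only that these letters are not there.

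**Figure D4:**
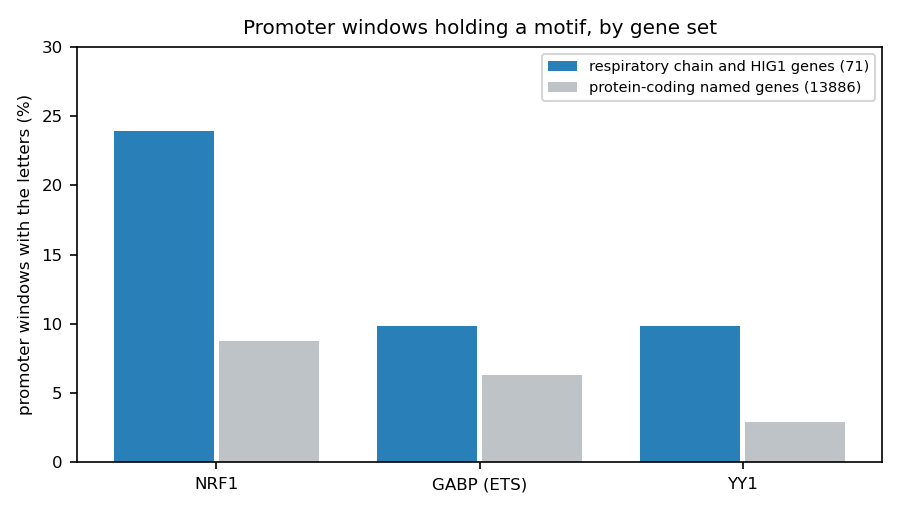
Share of promoter windows (vertical axis, percent) that hold the NRF1, GABP or YY1 letters, for 71 respiratory chain and HIG1 genes (blue) and 13886 protein-coding named genes (grey). NRF1 letters were in 23.9% of the members' windows and in 8.79% of the windows of protein-coding named genes, which include members.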

How the data were processed

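Per the submitters' processing notes, the deposited values are log2 signals from RMA (robust multi-array average). RMA corrects background, normalizes by quantiles between arrays and summarises probes. The version of RMA was not given in the sources used here. Detection calls were not part of the table, and precision is limited by having 3 arrays in each group. Of 70523 features, 67528 were transcript clusters, 23781 of them with 1 symbol in GEO's platform annotation, which gave 22465 named genes (brightest cluster per gene). Changes are shSND1 minus vector from limma 3.58.1 (lmFit, eBayes; R 4.3.3). Group was the one term of the model, with Benjamini-Hochberg adjustment over all named genes and a threshold of 0.05. The row of SND1 is described by its signals. Single values were set in an exact permutation test (scipy 1.17.1). Since separate cultures are not stated, the p-values rest on a spread between arrays that may be technical.

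The members and lists were chosen with earlier results of these data known, so lists are described by counts and medians without a test. Genes printed by array were every member past the threshold, the HIG1 genes, the SDH genes, CYC1, and in each of complexes I, III, IV and V the 3 smallest p-values and the highest signal. Of each other list, the gene with the smallest p was to be named, by its change or by its arrays, and SDHAF3, ATPAF2 and CDH5 are covered by their list's range or array means. NOP16, COX6A1P2 and NDUFB2 are printed by array outside this rule, chosen after their values were seen. Scripts were tested on simulated data. The alternatives are given in the closing section. Figures were drawn with matplotlib 3.10.9. Promoter sequences came from RefSeq tables of GRCh38.p14, whose relation to the array design's build is not known.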

Additional observations from a re-analysis of the deposited data

How the results depend on the processing

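The number of members past the threshold, 1 in the reported fit (HIGD2A), was 0 with the replicate number as a block, 0 over all transcript clusters and 0 when HIGD1A and HIGD2A were left out of the count (chosen after seeing the data). It was 2 without the dimmest 40% of genes (HIGD2A and COX6A1), 4 with array weights, and between 0 and 1 when each array was left out. The array weights stopped before convergence and called 3212 of all named genes, against 38 in the reported fit, 61 after renewed quantile normalization, 15 with centred arrays, 133 with a variance trend, 271 without the dimmest 40%, 1 with the block, 3 over all transcript clusters and 0 to 35 when 1 array was left out. The replicate numbers did not pair the arrays: the deviations of same-numbered arrays correlated at -0.36, 0.11 and -0.49. With array medians centred, the median change was -0.0790 for all members, -0.0655 for complex I and -0.0586 for complex IV. It was -0.0463 for complex III with array weights. When each array was left out, the median of all members lay between -0.0381 and -0.0052, that of complex III between -0.1254 and -0.0330 and that of complex IV between -0.0318 and -0.0089. Among single genes with no call, the sign turned for SDHD after renewed quantile normalization (0.0187) and for NDUFS5 with centred arrays (-0.0170). With 1 array left out, the change ranged from -0.0870 to 0.0077 for SDHA, from -0.0461 to 0.0288 for SDHD, from -0.0506 to 0.1174 for NDUFS5 and from -0.0057 to 0.1165 for ATP5F1B. The cause was not tested. Signal over background was not used here, so no limit by depth was set for dim genes such as COX8C.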
